A study of Homo sapiens with 3 samples.

Results

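MHC class I molecules and the genes that load them with peptide were examined in 3 human embryonic stem (ES) cell lines kept undifferentiated. The genes are the heavy chains HLA-B, HLA-C, HLA-E, HLA-F and HLA-G, the light chain B2M, the peptide transporter subunits TAP1 and TAP2, and the loading chaperone tapasin (TAPBP). They were chosen by symbol: 13 probes of the Illumina array are annotated to these 9 genes, of 18468 named probes for 16225 genes. ES01, BG03 and H9 are named lines, each grown on irradiated mouse embryonic fibroblasts in DMEM/F12 with KSR and FGF2, with no further treatment or genetic change given in the labels, and 1 array was run per line. The design text names mouse ES cells and EpiSCs as what the human cells were compared with. No mouse array is analysed here, and the values describe the human lines. The lines form 1 group, with 1 culture and 1 array each, so that line, culture and array cannot be told apart and no test between lines exists. RNA came from whole cultures, in which fewer cells of a type and less RNA per cell cannot be told apart.

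MHC class I molecules carry peptides from inside the cell to its surface, where cytotoxic T cells read them and natural killer cells sense their absence. A heavy chain folds with beta-2-microglobulin in the endoplasmic reticulum, the TAP1-TAP2 transporter brings in peptides cut by the proteasome, and tapasin holds the empty heavy chain at the transporter until a peptide is bound. Human ES cells are known for low surface class I that rises with interferon. HLA-B and HLA-C are classical heavy chains that differ in sequence between people, and between cell lines; HLA-E, HLA-F and HLA-G vary little.

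Among the 9 genes, 7 (77.8%) exceeded background in each of the 3 lines, a level that 59.8% of the 16225 named genes reached. HLA-G passed in ES01 and BG03, and HLA-F passed in no line. HLA-B was the 1 gene that differed at least 2-fold between any lines, being lower in BG03 than in both ES01 and H9. Among the other genes HLA-G stood at least 1.62-fold higher in BG03 than in H9, where it was below background, and TAPBP was 1.38-fold lower in ES01 than in BG03. Intensities are given in the array's units after quantile normalization, and background on an array is the 95th percentile of 215 olfactory receptor probes, genes not known to be active in these cells. It lay at 13.3 units in ES01, 12.6 in BG03 and 11.2 in H9. A 2-fold difference in any pair of lines was found for 8.29% of 11004 genes that passed this threshold in any line.

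Marker lists of several cell types were read beside these genes. Of 9 measured pluripotency markers 8 were above background in all lines, among them POU5F1, NANOG, LIN28A and DNMT3B; SOX2, read by 1 probe, was in none, and ZFP42, which marks undifferentiated cells, differed between lines (247 units in ES01, 780 in BG03 and 364 in H9). Markers of blood and antigen presenting cells were above background for 0 of 7 genes in any line, and their summed intensity was 12.2 units in ES01, 8.23 in BG03 and 10.7 in H9. Of 12 trophoblast markers 3 (GATA3, TFAP2C and HAND1) were above it in all lines and 6 in none. Of these HAND1 was 2.21-fold lower in ES01 than in BG03. For 12 fibroblast and stroma markers the summed intensity was 3724 units in ES01, 2720 in BG03 and 3557 in H9. Most of each sum came from VIM (2104, 1476 and 2346 units in the same lines) and THY1 (824, 851 and 752 units). Above background in all lines were 5 of the 12, and COL3A1 and POSTN were in none. Of these 12, 6 (COL1A1, COL1A2, DCN, LUM, TWIST1 and LOX) differed at least 2-fold in some pair of lines, as did 3 of 6 neural markers (PAX6, DCX and OLIG2) and 2 of 5 endothelial markers (TEK and VWF), beside 8.29% of all genes above background in any line. Each array held between 2089034 and 2102778 beads, with a median of 42 beads per bead type on each array.

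**Figure D1:**
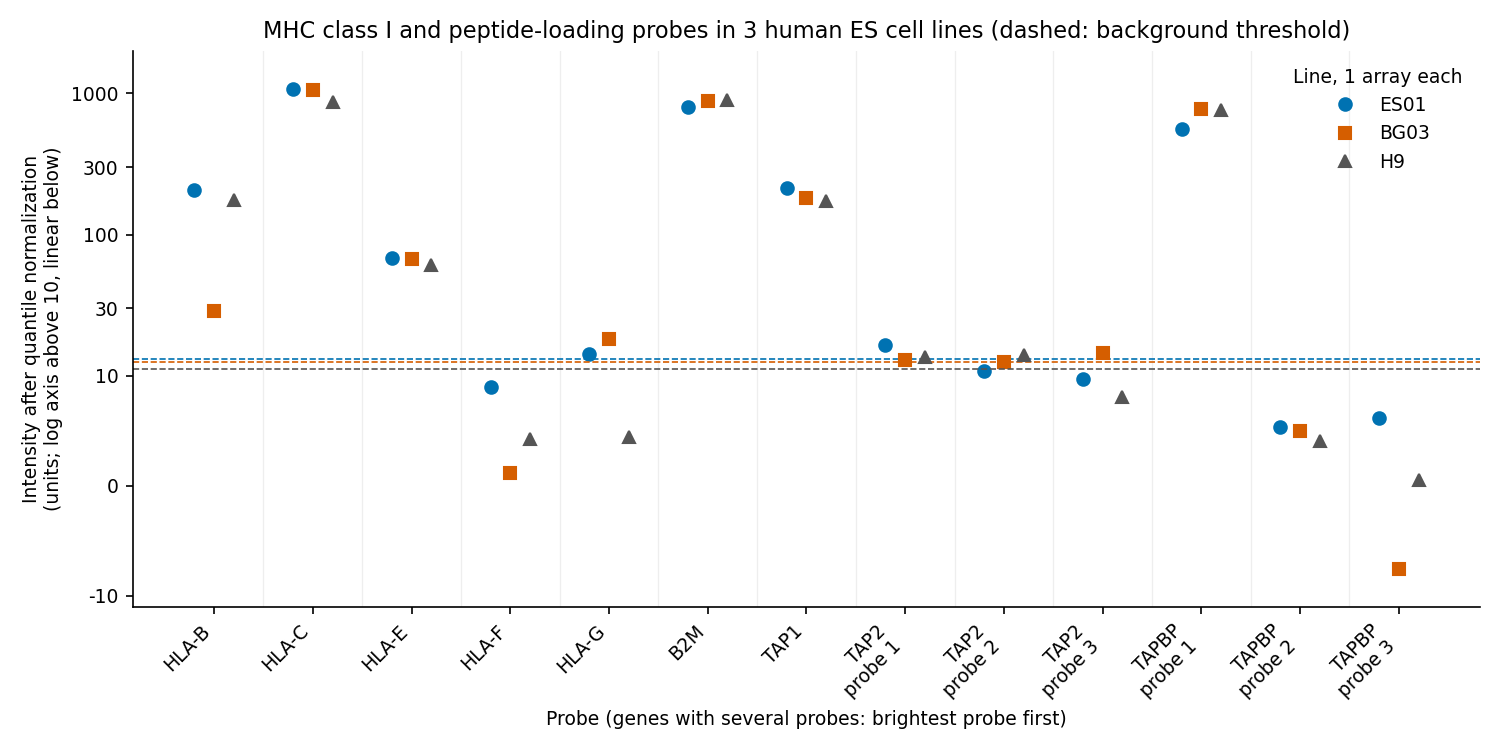
Intensity of each of the 13 probes in ES01, BG03 and H9 (1 array each; log axis above 10 units, linear below), with dashed lines at each array's background threshold. HLA-B in BG03 (29.0 units) stands below ES01 (205 units) and H9 (176 units), while the 3 lines lie close together at HLA-C, HLA-E, B2M and TAP1.

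HLA-B presents peptides to CD8 T cells and is the most variable class I gene in people. Its probe (GI_21327676-S) read 205 units in ES01, 29.0 in BG03 and 176 in H9 (log2 SD 1.57, n = 3). BG03 was low and the other lines were close to each other. The intensity in BG03 was 2.30 times the background threshold, and just under the 99th percentile of the olfactory receptor probes on that array (30.8 units). ES01 stood 7.09-fold above BG03, a log2 difference of 2.83, and a difference of that size or more was found for 9 of 10693 genes (0.0842%). BG03 was 6.06-fold lower than H9, a log2 difference of -2.60, which was reached or passed by 23 of 10795 genes (0.213%). Between ES01 and H9 the log2 difference was 0.23. In each pair the count includes HLA-B itself.

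The bead files give the error of a single array. Bead codes are not paired with genes in the files, so the error was read from the 500 bead types nearest in rank to each probe's deposited value. At the rank of HLA-B the median standard error over beads was 8.82 units in ES01 (deposited value 205.7), 3.53 units in BG03 (deposited value 29.0) and 7.92 units in H9 (deposited value 173.5). The gap between BG03 and the other lines was larger than this bead error, which covers neither a second culture nor a second array. Some stroma markers were also lowest in BG03: COL1A2, a collagen chain, read 582 units in ES01, 229 in BG03 and 310.3 in H9, and DCN (26.4, -0.60 and 30.5 units) and LOX (28.0, 9.17 and 22.4 units) were below background in BG03 alone. LUM went the other way, at 10.1 units in ES01, 48.9 in BG03 and 10.1 in H9, above background in BG03 alone. THY1 was also highest in BG03, at 824 units in ES01, 851 in BG03 and 752 in H9. COL1A1, TWIST1 and PDGFRB were lowest in H9 and PDGFRA in ES01, while VIM was lowest in BG03. Single genes of the stroma list thus gave no single order of the lines. Over the list the median log2 difference was 0.70 for ES01 minus BG03 (7 of 10 genes higher in ES01). Over all genes it was -0.02 (47.6% higher in ES01). For BG03 minus H9 the list median was -0.13 (5 of 10 genes higher in BG03), beside 0.02 over all genes. With arrays set to a common median the list medians were 0.38 and -0.08, beside -0.35 and 0.07 over all genes. The part of such cells in the HLA-B difference was not tested. HLA-B was read by 1 probe whose sequence was not used here. Fewer HLA-B transcripts in BG03 and a form of HLA-B that this probe binds less well cannot be told apart.

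HLA-C, the other measured classical heavy chain and a ligand of killer cell receptors, did not share this pattern. It read 1074 units in ES01, 1059 in BG03 and 871 in H9 (log2 SD 0.17, n = 3). ES01 and BG03 were alike at this probe and H9 was lowest, with log2 differences of 0.02 between ES01 and BG03, 0.30 between ES01 and H9 and 0.28 between BG03 and H9. The median standard error over beads at this rank was 0.04 on the log2 scale in each of the 3 arrays.

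The promoters of these genes are shown because HLA-B and HLA-C, which differed in their pattern over the lines, have closely similar ones in the reference genome, and because B2M, TAP1 and TAPBP serve as loading genes to set beside them. Each window runs from 250 bases before to 50 bases after a transcript start, on the gene's strand, from RefSeq (GRCh38.p14); it is the reference sequence, not that of these lines. Of the 9 genes 8 matched a window. Capitals mark matches, on either strand, to GAAANNGAA (the core of the interferon-stimulated response element), GGNNTTNCC (a form of the NF-kappaB site) and CCAAT (the box bound by NF-Y).
HLA-B, chr6:31357130-31357429, minus strand: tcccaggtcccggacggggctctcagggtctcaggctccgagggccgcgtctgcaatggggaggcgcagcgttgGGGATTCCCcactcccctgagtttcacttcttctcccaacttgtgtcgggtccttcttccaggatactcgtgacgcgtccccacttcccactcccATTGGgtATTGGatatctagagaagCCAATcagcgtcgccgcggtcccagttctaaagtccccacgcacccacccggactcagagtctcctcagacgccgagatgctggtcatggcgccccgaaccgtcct
HLA-C, chr6:31272043-31272342, minus strand: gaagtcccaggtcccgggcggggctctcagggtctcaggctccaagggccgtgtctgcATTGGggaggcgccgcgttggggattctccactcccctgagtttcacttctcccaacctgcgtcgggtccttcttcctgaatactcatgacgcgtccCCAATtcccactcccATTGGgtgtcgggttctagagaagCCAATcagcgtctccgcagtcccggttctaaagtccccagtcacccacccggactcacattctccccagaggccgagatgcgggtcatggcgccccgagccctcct
B2M, chr15:44711267-44711566, plus strand: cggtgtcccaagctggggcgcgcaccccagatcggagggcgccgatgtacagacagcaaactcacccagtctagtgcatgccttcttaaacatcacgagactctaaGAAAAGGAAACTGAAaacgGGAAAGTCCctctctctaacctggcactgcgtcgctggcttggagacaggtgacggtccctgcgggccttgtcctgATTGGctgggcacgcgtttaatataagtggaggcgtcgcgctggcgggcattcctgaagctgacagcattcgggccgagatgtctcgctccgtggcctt
TAP1, chr6:32853655-32853954, minus strand: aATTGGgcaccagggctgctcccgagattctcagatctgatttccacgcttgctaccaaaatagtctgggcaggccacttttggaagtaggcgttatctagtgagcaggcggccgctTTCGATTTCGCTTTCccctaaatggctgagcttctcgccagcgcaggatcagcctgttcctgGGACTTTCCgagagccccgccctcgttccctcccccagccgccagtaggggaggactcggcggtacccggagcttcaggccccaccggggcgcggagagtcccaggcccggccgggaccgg
TAPBP, chr6:33314029-33314328, minus strand: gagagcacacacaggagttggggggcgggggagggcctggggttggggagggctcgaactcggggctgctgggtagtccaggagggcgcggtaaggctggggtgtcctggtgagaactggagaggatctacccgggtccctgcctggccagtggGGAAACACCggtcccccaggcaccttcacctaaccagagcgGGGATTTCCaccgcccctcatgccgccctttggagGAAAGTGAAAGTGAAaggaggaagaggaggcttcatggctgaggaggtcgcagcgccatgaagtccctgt

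The HLA-B and HLA-C windows were identical at 88.5% of positions in a global alignment. The HLA-G window nearest the coding start (chr6:29827575-29827874) was identical to HLA-C at 78.3% and to HLA-B at 73.5%. The NF-kappaB form matched from base 75 of the HLA-B window and nowhere in the HLA-C window. The HLA-C window reads gggattctc where HLA-B reads GGGATTCCC, so that the contrast rests on the exact form searched. HLA-B held 3 CCAAT matches and HLA-C 4. Matches to the interferon core overlapped each other in B2M (from bases 107 and 113), TAP1 (118 and 124) and TAPBP (231 and 237). TAP2 held 1 from base 193, and the heavy chain HLA-F held 1 from base 96. These genes have 11 windows in all, of which 5 held the interferon core, 5 the NF-kappaB form and 6 a CCAAT. Of all 35116 promoter windows of the same length 8.11% held the interferon core, 17.1% the NF-kappaB form and 34.6% a CCAAT. A match is a description of letters, and none of these data measure binding.

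The nonclassical heavy chains were dim. HLA-E, which presents leader peptides of other class I chains to natural killer receptors, read 68.6 units in ES01, 67.5 in BG03 and 61.05 in H9 (log2 SD 0.09, n = 3). It was above background in every line, and its lines differed by at most 0.17 on the log2 scale. HLA-G, best known from invading trophoblast, read 14.2 units in ES01, 18.2 in BG03 and 4.43 in H9. It was 1.07 and 1.44 times the threshold in ES01 and BG03 and below it in H9, so BG03 stood at least 1.62-fold above H9 and ES01 at least 1.27-fold. The median standard error over beads at the rank of HLA-G was 3.09 units in ES01, 3.24 in BG03 and 2.51 in H9, so that the ES01 value lay within 1 standard error of the threshold. The trophoblast list beside it summed to 366 units in ES01, 363 in BG03 and 332 in H9, with CDX2, CGA, CGB3, GCM1, ELF5 and TFAP2A not above background in any line; its part in the HLA-G signal was not tested. HLA-F, a heavy chain mostly seen inside the cell, read 8.97 units in ES01, 1.13 in BG03 and 4.27 in H9, below the threshold in each. No fold is given for it, and a probe below background does not show that a transcript is absent.

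B2M, the light chain that every class I molecule needs, varied little. It read 799 units in ES01, 889 in BG03 and 896 in H9 (log2 SD 0.09, n = 3). ES01 was lowest by log2 differences of -0.15 against BG03 and -0.16 against H9, and BG03 and H9 differed by -0.01. The median bead standard error at its rank was 0.04 on the log2 scale in each array.

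The subunits of the peptide transporter differed in how well they were measured. TAP1, the subunit most known for its induction by interferon gamma, read 215 units in ES01, 180.3 in BG03 and 172 in H9 (log2 SD 0.17, n = 3). ES01 was highest, by log2 differences of 0.25 against BG03 and 0.32 against H9, and BG03 and H9 differed by 0.07. TAP2, its partner, was read by 3 probes, all near the threshold. The brightest (GI_9961245-I) read 16.6 units in ES01, 13.0 in BG03 and 13.6 in H9, between 1.03 and 1.25 times the threshold. The second (GI_9961247-A) read 10.8, 12.5 and 14.1 units in ES01, BG03 and H9 and passed in H9 alone. The third (GI_9961247-I) read 9.67, 14.4 and 8.07 units in the same order and passed in BG03 alone. The 3 TAP2 probes therefore put a different line highest each, and no order of the lines was read from them.

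TAPBP, which bridges the heavy chain and the transporter, was read by 3 probes that disagreed in level. The probe annotated to transcript NM_003190 (GI_27436892-I) read 559.9 units in ES01, 774 in BG03 and 766 in H9 (log2 SD 0.27, n = 3). ES01 was lowest there, 1.38-fold lower than BG03 and 1.37-fold lower than H9, and BG03 and H9 differed by 0.02 on the log2 scale. The bead standard error at these ranks was at most 0.042 on the log2 scale. The probe annotated to NM_172209 (GI_27436896-A) read 5.33 units in ES01, 4.93 in BG03 and 4.07 in H9, and the probe annotated to NM_172208 (GI_27436894-I) read 6.17, -7.60 and 0.50 units in the same lines. Neither passed the threshold in any line, so the level given for TAPBP rests on its first probe.

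Between lines, none of these genes other than HLA-B was called at 2-fold. Of 8 genes above background in either line of the pair, HLA-B included, 1 (HLA-B) differed at least 2-fold between ES01 and BG03. Of all genes 3.86% did. The same 1 differed between BG03 and H9, where 3.31% of all genes did, and 0 of 8 differed between ES01 and H9, where 5.24% did. Their median log2 difference was 0.02 for ES01 minus BG03, 0.26 for ES01 minus H9 and 0.04 for BG03 minus H9, beside -0.02, 0.01 and 0.02 over all genes in those pairs. With arrays set to a common median instead, the medians over all genes were -0.35, -0.28 and 0.07, and those of the class I and loading genes -0.31, -0.065 and 0.11. Under that scaling ES01 stood below H9 for HLA-B, HLA-E and TAP2 and below BG03 for HLA-C, HLA-E and TAP1, and BG03 above H9 for B2M, each the other way round from the values above, while the low HLA-B of BG03 and the low TAPBP and B2M of ES01 kept their direction.

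**Figure D2:**
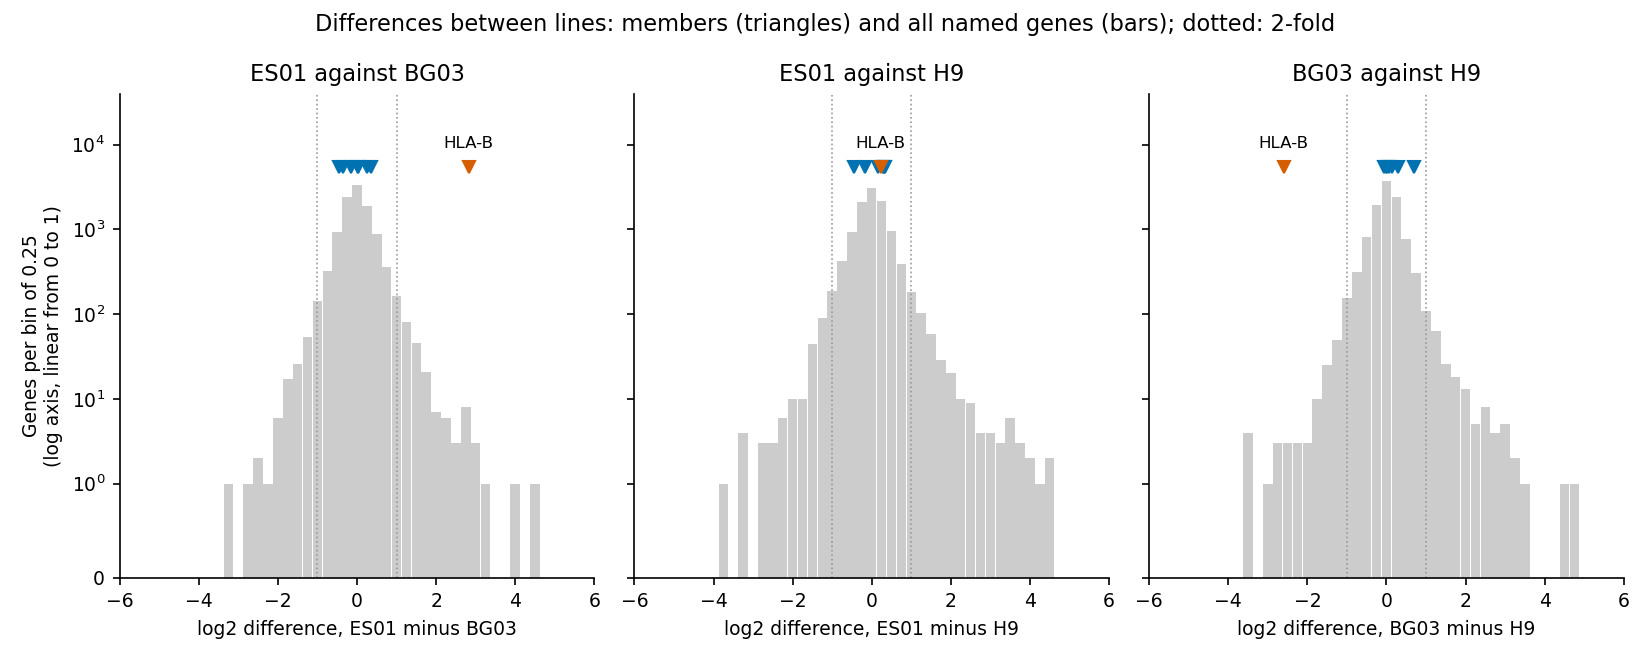
Histograms of the log2 difference of all named genes above background in either line (bars, log count axis) for ES01 minus BG03, ES01 minus H9 and BG03 minus H9, with triangles for the 8 class I and loading genes above background and dotted lines at 2-fold. HLA-B lies at 2.83 in the first pair and at -2.60 in the third, outside the dotted lines, and at 0.23 in the second; the other triangles lie inside them.

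Genes next to HLA-B on chromosome 6 differed less between BG03 and the other lines than HLA-B did. Of the 5 nearest named and measured genes on each side, in the order of the RefSeq gene table, 10 passed the threshold in some line. At least 2-fold lower in BG03 than in both other lines were 0, beside 0.445% of all genes. So few genes cannot tell 0 from that share. HLA-C and POU5F1, the core pluripotency factor, lie on one side; POU5F1 read 195 units in ES01, 287 in BG03 and 269.6 in H9. On the other side lie MICA and MICB, stress ligands of the natural killer receptor NKG2D. MICB read 172 units in ES01, 104 in BG03 and 177 in H9, with log2 differences of -0.73 for BG03 minus ES01 and -0.77 for BG03 minus H9. ATP6V1G2, a proton pump subunit, read 58.3, 37.5 and 68.5 units in ES01, BG03 and H9. BG03 was thus lowest at MICB and ATP6V1G2 too, by less than 2-fold, and also at HCP5, where it read 56.7 units against 57.4 in ES01 and 74.2 in H9. These were 3 of the 10 neighbours, and the share of all genes lowest in BG03 was not computed. MICA was highest in H9, with 207 units in ES01, 253 in BG03 and 353 in H9. CCHCR1 (63.9 units in ES01, 97.9 in BG03 and 70.55 in H9) and TCF19 (15.7, 16.8 and 14.3 units in the same lines) were, like POU5F1, highest in BG03. HCG27 and DDX39B completed the neighbours.

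**Figure D3:**
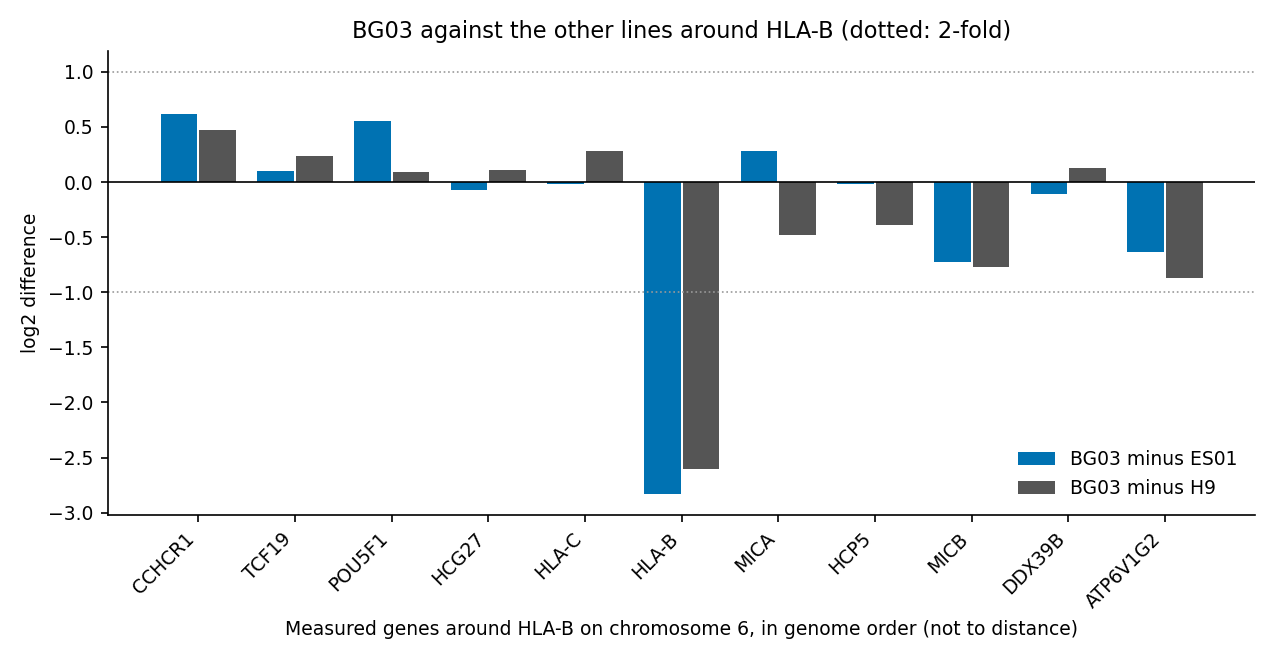
Log2 difference of BG03 against ES01 (blue bars) and against H9 (grey bars) for HLA-B and its 5 measured neighbours on each side, in genome order and not to distance; dotted lines mark 2-fold. HLA-B falls past the lower dotted line in both comparisons (-2.83 and -2.60) and all 10 neighbours lie between the dotted lines.

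Next to TAP1 and TAP2 lies PSMB8, an immunoproteasome subunit, which read 138 units in ES01, 143 in BG03 and 199.8 in H9; H9 was highest there, which was not so for TAP1. The flanking class II genes HLA-DMB and HLA-DOB were above background in 1 line and in none. RGL2 and ZBTB22, on either side of TAPBP, were above background in every line; ZBTB22 read 172 units in ES01, 214 in BG03 and 209 in H9.

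The genes whose pattern over the 3 lines lay closest to HLA-B, by Euclidean distance of log2 deviations from each gene's own mean, were WDR90, CTHRC1, APOL2, ZNF577 and TXNDC9, at distances of 0.20, 0.33, 0.56, 0.64 and 0.80. WDR90 (97.6 units in ES01, 5.33 in BG03 and 93.2 in H9), CTHRC1 (77.9, 12.5 and 91.6 units in the same lines) and APOL2 (52.7, 11.5 and 51.0 units) were not above background in BG03. They lie on chromosomes 16, 8, 22, 19 and 2, none on the chromosome of HLA-B. With 3 points per gene such likeness is a description.

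The proteasome cuts the peptides that TAP carries. All 9 measured genes of the proteasome list passed the threshold in every line, beside 59.8% of all named genes. At least 2-fold apart in any pair were 0 of 9, beside 8.29% of all genes above background in any line. A list this small cannot tell 0 from that share, here or in the lists below. The catalytic subunits of the standard proteasome read 2651 units in ES01, 3148 in BG03 and 2785 in H9 for PSMB5, 6561, 7589 and 6847 units for PSMB6 in the same lines, and 4862, 5866 and 5011 units for PSMB7. BG03 was highest at each of the 3. The immunoproteasome subunit PSMB10 read 1398 units in ES01, 1633 in BG03 and 1585 in H9. PSME1, a subunit of the PA28 activator, read 2704 units in ES01, 3035 in BG03 and 3079 in H9. PSME3, of the nuclear activator, was highest in ES01 (771 units in ES01, 573 in BG03 and 477 in H9).

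Partners in the endoplasmic reticulum were above background in all lines for 8 of 10 genes, beside 59.8% of all named genes. At least 2-fold apart were 0 of 10, beside 8.29%. ERAP2, an aminopeptidase that trims peptides to length, read 1432 units in ES01, 1192 in BG03 and 1129 in H9. Its relative ERAP1 read 6.57 units in ES01, 15.4 in BG03 and 8.97 in H9 and passed in BG03 alone. The chaperones CALR (885 units in ES01, 686 in BG03 and 579 in H9) and CANX (5253, 4428 and 3788 units in the same lines) and the oxidoreductase PDIA3 of the loading complex (2519, 2348 and 2164 units) were each highest in ES01 and lowest in H9. Over the list the median log2 difference was 0.34 for ES01 minus H9 (7 of 9 genes, or 77.8%, higher in ES01), beside 0.01 over all genes (50.9% higher in ES01). With arrays set to a common median it was 0.10 (5 of 9 higher), beside -0.28 over all genes (21.2% higher), and CANX and PDIA3 were then highest in BG03. TAPBPL, a relative of tapasin, passed in ES01 alone at 15.6 units.

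**Figure D4:**
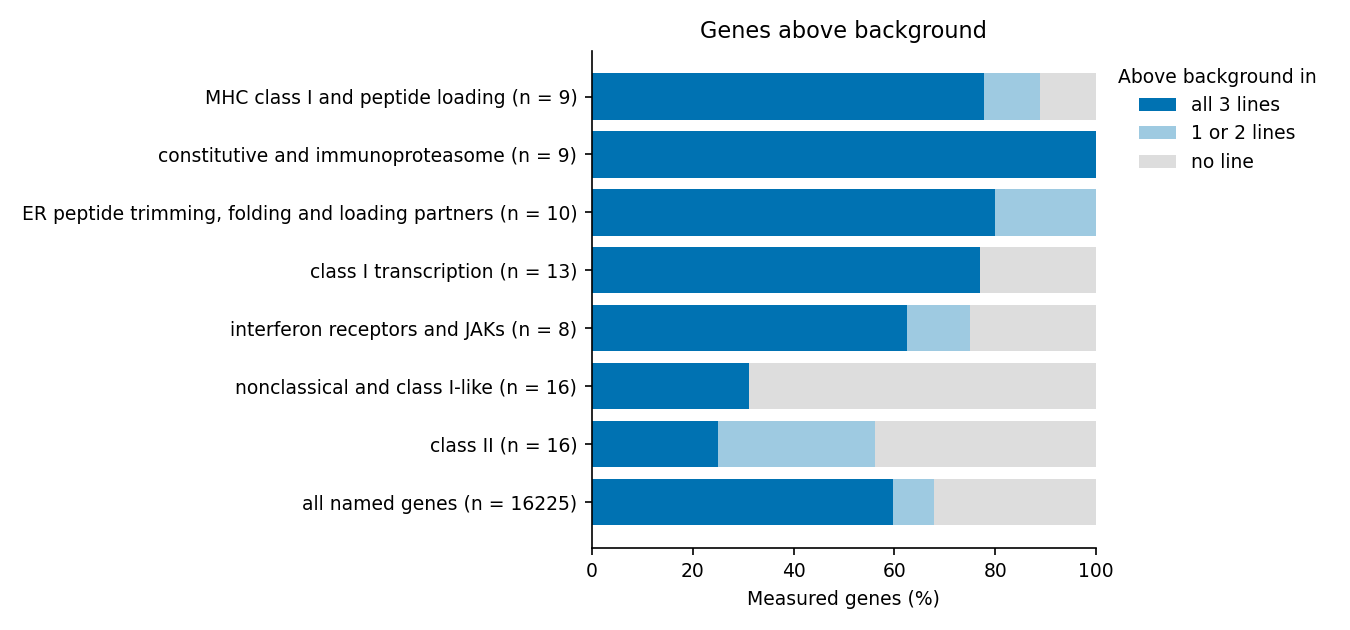
Percentage of measured genes that passed the background threshold in every line, in some lines or in none, for the class I and loading genes, 6 lists of related genes and all named genes. All 9 proteasome genes and 8 of 10 reticulum partners passed it in every line, as did 5 of 16 class I-like genes and 4 of 16 class II genes. Over all named genes the share was 59.8%.

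Regulators of class I transcription were above background in all lines for 10 of 13 genes, beside 59.8% of all named genes. At least 2-fold apart were 0 of 13, beside 8.29%, and the 3 genes above background in no line could not be called. NLRC5, the coactivator that drives class I promoters in immune cells, was not above background in any line, nor were RFXAP and IRF2. RFX5, of the factor that binds the X box, read 549 units in ES01, 528 in BG03 and 595 in H9, and RFXANK 194, 202 and 157 units in the same lines. CREB1 read 534 units in ES01, 481 in BG03 and 350.3 in H9. NFYA, of the CCAAT-binding factor, read 38.1 units in ES01, 58.7 in BG03 and 58.3 in H9. IRF1, an interferon-induced activator, read 53.2 units in ES01, 89.5 in BG03 and 66.2 in H9, and NFKB1 213, 326 and 277 units in the same lines; both were highest in BG03.

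Of the interferon receptor genes, those for interferon gamma were above background and those for type I interferon were not. IFNGR1 read 372 units in ES01, 422 in BG03 and 373 in H9, and IFNGR2 897, 1173 and 1169.9 units in the same lines. IFNAR1 and IFNAR2 were below the threshold in every line, each at 1 probe. JAK1 read 59.4 units in ES01, 59.1 in BG03 and 46.9 in H9, TYK2 101, 139 and 169 units in the same lines, and IRF9 82.1, 108 and 77.6 units. JAK2 passed in ES01 and BG03. Of 8 measured genes 5 were above background in all lines, beside 59.8% of all named genes, and 2 in none. At least 2-fold apart were 0 of 8, beside 8.29%.

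Of 16 measured class I-like genes 5 were above background in all lines (CD1D, FCGRT, MICA, MICB and PROCR), beside 59.8% of all named genes. The other 11 were above it in none, including HFE, MR1, CD1A, CD1B, CD1C and the NKG2D ligands ULBP1, ULBP2 and ULBP3. FCGRT, the neonatal Fc receptor, which also pairs with B2M, read 206 units in ES01, 197 in BG03 and 213 in H9. CD1D, the lipid presenter, read 68.1, 80.3 and 67.3 units in the same lines. Of these genes 0 differed at least 2-fold in any pair, beside 8.29% of all genes above background in any line. The 11 above background in no line could not be called.

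Class II genes serve antigen presenting cells. Of the 6 lists of antigen presentation genes, this was the 1 with differences of at least 2-fold, in 3 genes. Over all genes above background in any line the share was 8.29%. With arrays set to a common median, 3 of the other lists held 1 such gene each. Of 16 measured genes 4 passed the threshold in every line, beside 59.8% of all named genes, and 5 in some. The 7 that passed in none could not be called, among them HLA-DRA, HLA-DRB1, HLA-DRB3, HLA-DRB4 and the master regulator CIITA. HLA-DPB1 read 989.6 units in ES01, 1254 in BG03 and 999 in H9, and CD74, the invariant chain, 119, 89.8 and 105 units in the same lines. HLA-DPA1, the partner of HLA-DPB1, read 218 units in ES01, 236 in BG03 and 111 in H9, so that BG03 stood 2.14-fold above H9. HLA-DQB1 was not above background in ES01 (7.37 units) or BG03 (2.37 units) and read 88.8 units in H9, at least 6.70-fold lower in ES01 and at least 7.05-fold lower in BG03 than in H9. HLA-DRB5 was also above background in H9 alone, at 5.13 units in ES01, 4.03 in BG03 and 45.6 in H9, at least 3.44-fold lower in ES01 and at least 3.63-fold lower in BG03 than in H9. HLA-DQA1 passed in H9 alone, at 20.3 units. Like HLA-B, these genes differ in sequence between people and were read by 1 probe each, and level and probe binding cannot be told apart.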

How the data were processed

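Total RNA was extracted with TRIzol and labelled with Cy3 for Illumina whole-genome arrays, per the labels' protocols. The deposited value table gives a background-subtracted intensity per probe on a linear scale, with 26.3% (ES01), 32.8% (BG03) and 33.8% (H9) of values below 0 and column medians of 4.4, 3.5 and 3.5 units. Each deposited bead file lists the green intensity of single beads, per the file headers. Software and scaling were not given in the sources used here.

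Probes were named from the platform annotation (18468 with 1 symbol, 0 with several, 28825 unnamed here), and 18451 were found by gene ID in RefSeq (GRCh38.p14). All probes except 4 bacterial controls (47289) underwent quantile normalization (limma 3.58.1, R 4.3.3). For a gene with several probes (1614 genes) the highest mean was used, but each probe of the 9 genes is reported. Values under the array's threshold were set to it before log2. Differences use genes above background in either line of a pair, except where any line is stated, and are called at 2-fold. Outlying beads, more than 3 median absolute deviations away from the median of the type, were dropped (0.534% to 0.583%). Python 3.11.15 with numpy 2.4.6, pandas 2.3.3, matplotlib 3.10.9 and Biopython 1.88 was used. The calling of 2-fold differences was tested on simulated data, with changes only in genes well above background. Changes near the threshold and the bead, neighbour and promoter steps were not covered. The 3 arrays limit the precision.

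The genes, lists and rules were chosen with earlier results of these data known. Named were all 9 genes, the first 6 measured genes of each antigen presentation list and its genes at least 2-fold apart, the neighbours, and the 5 genes most like HLA-B; other list genes and all cell type markers were named after their values were seen. Alternatives were the scaling, background, floor, probe rule, fold and leaving out each line.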

Additional observations from a re-analysis of the deposited data

How the results depend on the processing

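Of 171 values recomputed under alternatives, 157 stayed within the spread or within 1.5 times of those reported. For HLA-B the spread was its SD over the lines (1.57 on the log2 scale), which holds the BG03 difference itself. For the medians it was the SD of the class I and loading genes' differences, HLA-B among them. A move from 0.02 to -0.31 for ES01 minus BG03 thus counted as within it. The count of 157 therefore does not measure how firm these results are. The HLA-B difference kept its direction in both pairs with BG03: ES01 minus BG03 ranged from 2.04 (floor of 50 units) to 2.84 and BG03 minus H9 from -2.60 to -1.81 (same floor). Genes above background in all lines numbered 5 of 9 with the 99th percentile, where HLA-B in BG03 and TAP2 no longer passed, and 6 to 8 with a line left out. With a 1.5-fold threshold, 2 of the 9 genes differed in any pair and 2 between BG03 and H9, HLA-G being added. Scaling to the same median turned the median of ES01 minus H9, 0.26 as reported, to -0.065. Over the 6 lists of related genes, those differing at least 2-fold numbered 3 in any pair, 0 for ES01 and BG03, 2 for ES01 and H9 and 3 for BG03 and H9. Scaling to the same median made these 6 in any pair, 1 for ES01 and BG03 and 4 for ES01 and H9; a floor of 50 units 1 in any pair, 0 for ES01 and H9 and 1 for BG03 and H9; and the 1.5-fold threshold 17, 5, 13 and 5 in the same order. Averaging its 3 probes lowered the mean log2 level of TAPBP to 5.56, against 9.44 for the first probe. A higher floor or threshold changes these counts by its construction. Scaling to the same median multiplies each array by 1 factor, from deposited medians of 4.4 units in ES01 and 3.5 in BG03 and H9. ES01 intensities above 0 are thereby all lowered by the same factor against both other lines. These medians lie below the background thresholds of 13.3 units in ES01, 12.6 in BG03 and 11.2 in H9. No paired analysis was possible because the lines form 1 group. Near the threshold (HLA-G, TAP2), signal over background limits what can be said.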
